A study of Mus musculus with 8 samples.

Results

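The genes described here are 10 genes of the endothelium of the blood-brain barrier: Cldn5, Ocln, Slc2a1, Mfsd2a, Pecam1, Flt1, Kdr, Tek, Abcb1a and Slco1a4. They were taken as a named set and matched by Ensembl identifier to mouse GENCODE symbols. All 10 were present among the 22430 genes of the count table, and all 10 were among the 16730 genes with enough counts to be tested. RNA was taken from the brains of 8 male C57Bl/6JRj mice, of which 4 were young adults aged 6 months (6m) and 4 were aged 24 months (24m), and the labels name no allele or agent in either group. Polyadenylated RNA was sequenced from brain tissue, called whole brain in the labels and hemisphere in the protocol, without sorting of vessels or endothelial cells. The question was how the RNA level of each gene differed between the ages. In bulk tissue, fewer endothelial cells and less RNA per cell cannot be told apart.

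Endothelial cells of brain capillaries are sealed to each other by tight junctions and make few transport vesicles, so that solutes enter the brain mainly through transport proteins in the cell membrane. Cldn5 encodes claudin-5 and Ocln encodes occludin, both membrane proteins of these junctions. Slc2a1 encodes the glucose transporter GLUT1, Mfsd2a a transporter of lysophospholipids that carry docosahexaenoic acid and that keeps vesicle transport low, Abcb1a the efflux pump P-glycoprotein, and Slco1a4 an organic anion transporter. Pecam1 encodes the adhesion molecule CD31. Flt1 and Kdr encode the VEGF receptors VEGFR1 and VEGFR2, and Tek encodes the angiopoietin receptor TIE2. Several of these genes are also read in other brain cells, Slc2a1 in astrocytes among them.

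Of the 10 genes, 3 were called higher at 24m (Ocln, Flt1 and Kdr), 1 was called lower (Cldn5), and 6 were not called. A gene was called where the edgeR adjusted p did not exceed 0.05 and the log2 fold change was 0.58 or more in size. Of all genes tested, 25.3% were called higher and 18.3% lower, 43.6% in either direction, so 4 of 10 is close to the share among all genes. On the log2 scale, the median change was 0.05 for the 10 genes and -0.00 for all genes tested. The libraries of the ages did not overlap for Cldn5, Ocln and Kdr, 3 of 10 genes, against 55.2% of all genes tested. The set did not move in a single direction: the junction gene Cldn5 fell while the junction gene Ocln rose, and the VEGF receptors rose while the angiopoietin receptor Tek had a log2 fold change of -0.18 that was not called.

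The promoters of the 4 called genes are shown because these are the members whose RNA differed between the ages. Each sequence is the 250 bases before the start of the gene's canonical GENCODE transcript in GRCm39, written 5′ to 3′ along the gene's strand. Capitals mark a match on either strand to the GC box GGGCGG, the TATA box TATAAA, or the ETS family motifs CCGGAA and ACAGGAA.
Cldn5, chr16:18595347-18595596, plus strand: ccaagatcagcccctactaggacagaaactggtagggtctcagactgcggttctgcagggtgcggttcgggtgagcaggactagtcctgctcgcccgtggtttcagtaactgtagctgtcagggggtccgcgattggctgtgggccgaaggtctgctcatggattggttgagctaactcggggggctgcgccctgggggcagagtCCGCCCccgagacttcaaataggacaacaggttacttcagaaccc
Ocln, chr13:100689230-100689479, minus strand: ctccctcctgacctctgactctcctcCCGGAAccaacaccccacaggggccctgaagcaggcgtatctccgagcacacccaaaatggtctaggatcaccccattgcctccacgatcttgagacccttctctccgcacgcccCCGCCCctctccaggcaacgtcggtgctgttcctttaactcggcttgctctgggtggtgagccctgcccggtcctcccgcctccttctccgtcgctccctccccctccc
Flt1, chr5:147662822-147663071, minus strand: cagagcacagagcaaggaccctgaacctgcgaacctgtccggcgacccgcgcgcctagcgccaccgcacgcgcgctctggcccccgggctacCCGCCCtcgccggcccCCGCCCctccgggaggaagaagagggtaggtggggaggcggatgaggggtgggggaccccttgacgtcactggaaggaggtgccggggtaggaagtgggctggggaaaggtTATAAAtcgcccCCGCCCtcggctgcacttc
Kdr, chr5:76139119-76139368, minus strand: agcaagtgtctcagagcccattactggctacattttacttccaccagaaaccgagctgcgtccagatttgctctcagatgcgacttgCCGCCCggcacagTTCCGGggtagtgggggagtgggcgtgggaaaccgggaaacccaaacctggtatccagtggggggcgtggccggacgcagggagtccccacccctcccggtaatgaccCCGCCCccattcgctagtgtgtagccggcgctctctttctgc

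Motifs were searched on both strands from 250 bases before to 50 bases after the start site, 300 bases in all, and none of the motif letters contain another motif. A GC box was found in 6 of the 10 promoters (Cldn5, Ocln, Slc2a1, Flt1, Kdr and Abcb1a) and in 42.6% of the promoters of 21571 protein-coding genes. CCGGAA was found in Ocln and Kdr and in 17.0% of all promoters, and ACAGGAA in Tek and in 7.9%. TATAAA occurred only in Flt1 among the 10, with its first base at -31, and in 13.2% of all promoters. The forkhead motif TTGTTTAC was in none of the 10 and in 0.9% of all promoters. The number of CpG dinucleotides in the same window ran from 0 in Slco1a4 to 29 in Flt1, beside quartiles of 4, 11 and 21 over all promoters. The 4 called genes had 12 (Cldn5), 17 (Ocln), 29 (Flt1) and 18 (Kdr), all above that median, as were Mfsd2a with 22 and Slc2a1 with 14, which were not called.

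Levels were compared between genes per exonic length, as TPM, which is counts per exonic length scaled to a fixed total in each library. In 6m the order was Cldn5 with 63 ± 11.2 TPM, Slc2a1 with 38.3 ± 0.624, Mfsd2a with 34.2 ± 4.68, Pecam1 with 2.15 ± 0.268 and Abcb1a with 1.78 ± 0.258 (SD, n = 4). Slco1a4 followed with 1.38 ± 0.293 TPM, Tek with 1.12 ± 0.147, Ocln with 0.552 ± 0.118, Flt1 with 0.459 ± 0.0314 and Kdr with 0.304 ± 0.0657 (SD, n = 4). Cldn5 and the transporters Slc2a1 and Mfsd2a thus stood well above the other 7 genes. Among neighbours in this order, the libraries of Slc2a1 and Mfsd2a overlapped, as did those of Pecam1 and Abcb1a, Abcb1a and Slco1a4, Slco1a4 and Tek, and Ocln and Flt1. By its mean Slc2a1 was first in 24m with 61.6 ± 11.7 TPM, before Cldn5 with 43.6 ± 7.54 and Mfsd2a with 38.9 ± 7.05 (SD, n = 4). The 24m libraries of these 3 genes overlapped, with 45.2 to 72.7 TPM for Slc2a1, 35.4 to 53.3 for Cldn5 and 32.2 to 48.9 for Mfsd2a. TPM divides by a sum over all genes that itself differed between the ages: scaled by that sum, all genes tested had a median of 0.52 on the log2 scale. Ages were therefore compared in CPM, counts scaled to library size with TMM factors, where that median was -0.00.

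**Figure D1:**
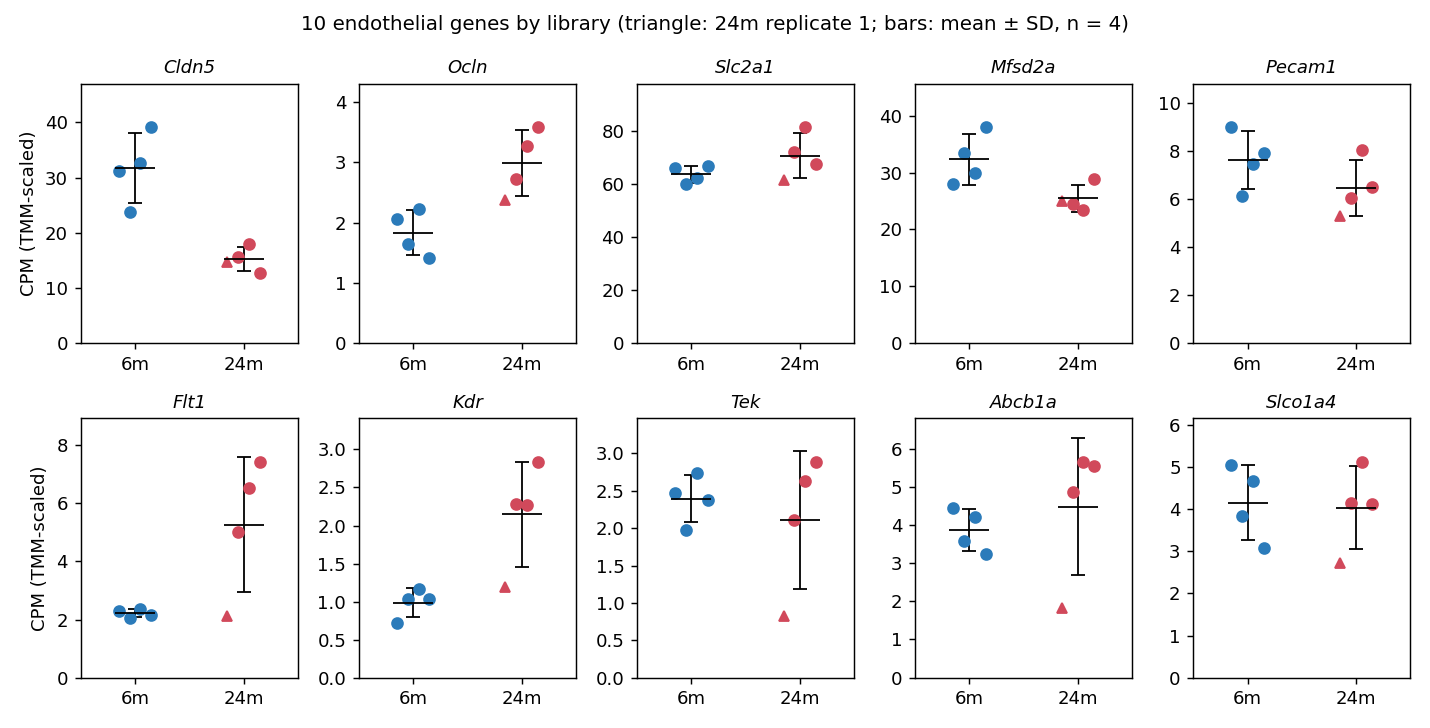
Level of each of the 10 genes in each library, in CPM scaled by TMM factors (vertical axes start at 0 and differ between panels), with the mean and SD of 4 libraries per age. Blue points are 6m, red points 24m and the triangle is 24m replicate 1. The ages do not overlap for Cldn5, Ocln and Kdr, and the triangle lies below the other 24m libraries for Ocln, Slc2a1, Pecam1, Flt1, Kdr, Tek, Abcb1a and Slco1a4.

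Total counts were 63460940 to 74513571 in 6m and 72936345 to 103462414 in 24m, the deepest being 24m replicate 1. Its mean Spearman rho across genes was 0.979 with its own age and 0.978 with 6m, whereas each of the other 24m libraries had 0.986 to 0.992 with its own age and 0.935 to 0.958 with 6m. Results are therefore also given without it. Across all genes tested, the log2 fold change also rose with exonic length (Spearman rho 0.42 across genes, which are not independent replicates): its median was -0.46 for genes up to the lower quartile of length, 3481 bp, and 0.44 for genes from the upper quartile, 8796 bp. Each fold change of the 10 genes is therefore also given with this trend removed from each library.

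Cldn5 lies on chromosome 16 at 18595597 to 18597012 of GRCm39, on the plus strand, and was annotated as a single exon of 1416 bp, the shortest of the 10. It was at 31.1, 23.8, 32.7 and 39.2 CPM in 6m replicates 1 to 4, and at 14.6, 15.5, 18 and 12.7 CPM in 24m replicates 1 to 4. Every 24m library was below every 6m library. Cldn5 was 2.09-fold lower at 24m (log2 fold change -1.06, SE 0.16, edgeR adjusted p = 0.000459), from 31.7 ± 6.35 to 15.2 ± 2.2 CPM (SD, n = 4). The decrease remained without 24m replicate 1, at a log2 fold change of -1.03. With the length trend removed it was -0.39 (SE 0.16, edgeR adjusted p = 0.0528), which was no longer called. Among the 1668 tested genes with the shortest exons, whose median length was also 1416 bp, the median fold change was -0.67 on the log2 scale. Over 24 alternative fits the adjusted p of Cldn5 ranged from 1.83e-10 to 0.0528.

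Ocln lies on chromosome 13 at 100630334 to 100689535, on the minus strand, with 9385 bp of exons. It was at 2.06, 1.64, 2.22 and 1.41 CPM in 6m and at 2.37, 2.73, 3.27 and 3.59 CPM in 24m, so that the lowest 24m library was just above the highest 6m library. Ocln was 1.63-fold higher at 24m (log2 fold change 0.71, SE 0.19, edgeR adjusted p = 0.00952), from 1.83 ± 0.374 to 2.99 ± 0.541 CPM (SD, n = 4). Without 24m replicate 1 the log2 fold change was 0.81. With the length trend removed it was 0.34 and was not called (edgeR adjusted p = 0.0894), and with the trend over GC content removed it was 0.52, under the fold threshold. Over the 24 alternatives its adjusted p ranged from 5.52e-05 to 0.11. Counts of Ocln were 93 to 313 per library, against 1112 to 2592 for Cldn5.

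The VEGF receptors had the largest increases of the 10 genes. Flt1, on chromosome 5 at 147498414 to 147662826 on the minus strand, has 13660 bp of annotated exons, the longest of the set, and its soluble and membrane forms were not separated by gene counts. Flt1 was at 2.30, 2.05, 2.37 and 2.16 CPM in 6m, a narrow range, and at 2.12, 5, 6.52 and 7.44 CPM in 24m. Of the 24m libraries 3 stood at more than the highest 6m level, and 24m replicate 1 stood within the 6m range. Flt1 was 2.37-fold higher at 24m (log2 fold change 1.24, SE 0.32, edgeR adjusted p = 0.00753). Without 24m replicate 1 the log2 fold change was 1.52, and with the length trend removed it was 0.69 (edgeR adjusted p = 0.0309); over the 24 alternatives the adjusted p ranged from 4.70e-08 to 0.0441, and Flt1 was called in all 24.

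Kdr lies on the same chromosome at 76093487 to 76139884, on the minus strand, with 9199 bp of exons. It was at 0.716, 1.03, 1.16 and 1.03 CPM in 6m and at 1.19, 2.28, 2.27 and 2.84 CPM in 24m. All 24m libraries were above the 6m libraries, 24m replicate 1 only narrowly. Kdr was 2.18-fold higher at 24m (log2 fold change 1.12, SE 0.27, edgeR adjusted p = 0.00519), with 47 to 248 counts per library. Its log2 fold change was 1.34 without 24m replicate 1 and 0.75 with the length trend removed (edgeR adjusted p = 0.0147), and it was called in all 24 alternatives, with adjusted p from 2.99e-06 to 0.0186.

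Tek, on chromosome 4 at 94627291 to 94763224 on the plus strand, was at 2.47, 1.98, 2.74 and 2.38 CPM in 6m and at 0.821, 2.11, 2.63 and 2.89 CPM in 24m. The 24m libraries other than replicate 1 were within or just above the 6m range, and replicate 1 was at less than any other library. Its log2 fold change, -0.18 (SE 0.33, edgeR adjusted p = 0.646), was not called. It was 0.10 without 24m replicate 1 and -0.30 with the length trend removed. The approximate 95% interval of the change, from -0.82 to 0.46, included changes as large as the fold threshold in the downward direction.

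Of the transporters, Mfsd2a had the smallest adjusted p in the fit to all libraries, but it was called in none of the 24 alternatives, against 2 for Slc2a1 and 1 for Abcb1a. It lies on chromosome 4 at 122840643 to 122855244, on the minus strand, with 2671 bp of exons. Mfsd2a was at 28, 33.4, 29.9 and 38.1 CPM in 6m and at 25, 24.5, 23.5 and 28.9 CPM in 24m, and a single 24m library, replicate 4, reached into the 6m range. The log2 fold change was -0.34 (SE 0.12, edgeR adjusted p = 0.0257), a difference of 1.27-fold that passed the p threshold, as 62.6% of all genes tested did, but not the fold threshold. The adjusted p was above 0.05 when replicate 2 (0.0602) or 4 (0.072) of 6m, or replicate 2 (0.0679) or 3 (0.0743) of 24m, was left out. It was -0.32 on the log2 scale without 24m replicate 1 (edgeR adjusted p = 0.0264) and 0.01 with the length trend removed, and over the 24 alternatives the adjusted p ranged from 0.000883 to 0.99.

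Slc2a1, on chromosome 4 at 118965908 to 118996365 on the plus strand with 4691 bp of exons, was the most deeply counted of the 10, with 3751 to 6788 counts per library. It was at 65.8, 59.8, 62.2 and 66.7 CPM in 6m and at 61.5, 72.1, 81.5 and 67.5 CPM in 24m. The 24m libraries other than replicate 1 were above all 6m libraries. Its log2 fold change, 0.15 (SE 0.10, edgeR adjusted p = 0.197), was not called, with a 95% interval of -0.04 to 0.34 that lies inside the fold threshold. It was 0.22 without 24m replicate 1 (edgeR adjusted p = 0.0255) and 0.16 with the length trend removed, and over the 24 alternatives the adjusted p ranged from 0.00149 to 0.517.

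Abcb1a, on chromosome 5 at 8710022 to 8798575 on the plus strand, was at 4.45, 3.58, 4.21 and 3.24 CPM in 6m and at 1.83, 4.86, 5.66 and 5.55 CPM in 24m. No 24m library fell inside the 6m range: 3 were above it and replicate 1 was below it. The log2 fold change over all libraries was 0.21 (SE 0.31, edgeR adjusted p = 0.574). Without 24m replicate 1 it was 0.48 (SE 0.14, edgeR adjusted p = 0.0103), still under the fold threshold, and with the length trend removed it was 0.07. Over the 24 alternatives the adjusted p ranged from 0.0103 to 0.975. Abcb1a has a close paralog, Abcb1b, and how the authors' counting treated reads that fit both was not stated.

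Slco1a4, on chromosome 6 at 141751165 to 141802036 on the minus strand, was at 5.06, 3.83, 4.66 and 3.07 CPM in 6m and at 2.73, 4.14, 5.13 and 4.13 CPM in 24m. The ages overlapped, and the log2 fold change was -0.04 (SE 0.22, edgeR adjusted p = 0.868), 0.11 without 24m replicate 1 and -0.37 with the length trend removed (edgeR adjusted p = 0.119). Over the 24 alternatives the adjusted p of Slco1a4 ranged from 0.0652 to 0.962. Pecam1, on chromosome 11 at 106543689 to 106641454 on the minus strand, was at 9.01, 6.12, 7.48 and 7.91 CPM in 6m and at 5.31, 6.03, 8.06 and 6.51 CPM in 24m. These ranges overlapped too, and its log2 fold change was -0.24 (SE 0.16, edgeR adjusted p = 0.226), or -0.14 without replicate 1 and -0.36 without replicate 3 of 24m. Pecam1 has 10002 bp of exons, and with the length trend removed its log2 fold change was -0.63 and was called lower (edgeR adjusted p = 0.00658), in a range of adjusted p over the 24 alternatives of 0.00231 to 0.963.

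**Figure D2:**
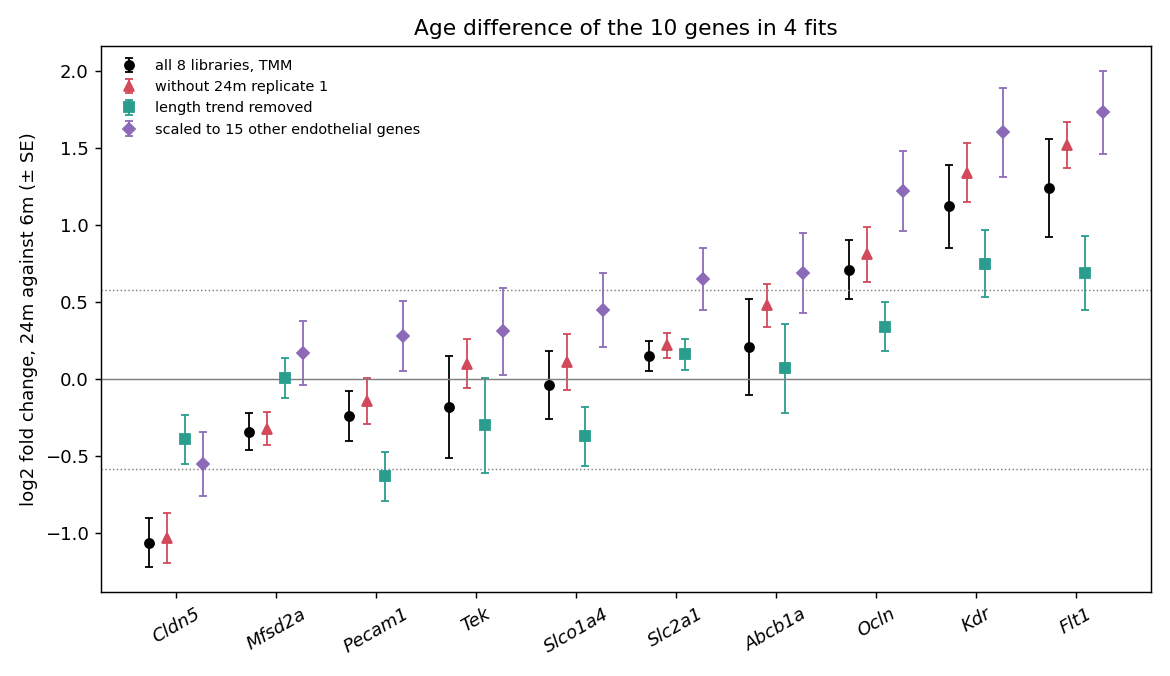
Log2 fold change at 24m against 6m (vertical axis) with its SE for the 10 genes, ordered by the fit to all 8 libraries (black circles), beside fits without 24m replicate 1 (red triangles), with the length trend removed (green squares) and with libraries scaled to 15 other endothelial genes (purple diamonds). Dotted lines mark 0.58 in either direction. Flt1 and Kdr lie above the upper line in all 4 fits, whereas Cldn5 crosses the lower line when the length trend is removed or the libraries are scaled to endothelial genes.

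**Figure D3:**
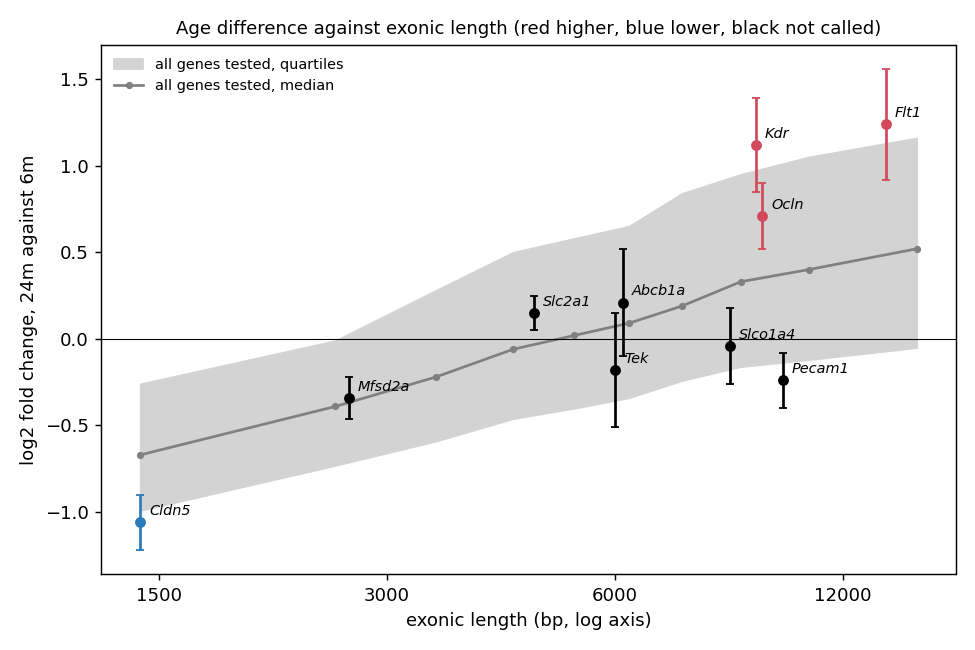
Log2 fold change at 24m against 6m (vertical axis) against exonic length in bp (log axis) for the 10 genes with SE. The grey line and band are the median and quartiles of all genes tested in 10 bins of like size by length, whose medians rise from -0.67 in the shortest to 0.52 in the longest. Cldn5 is at the short end and Flt1 at the long end, and Mfsd2a and Slc2a1 lie near the line. Cldn5 and Pecam1 lie below the band, and Flt1 and Kdr lie above it.

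The relation of the 10 genes to gene length was described rather than tested. The members called higher, Kdr, Ocln and Flt1, have 9199, 9385 and 13660 bp of exons, and the member called lower has 1416 bp. Exonic length did not order the members throughout, since Pecam1 with 10002 bp and Slco1a4 with 8515 bp had log2 fold changes of -0.24 and -0.04, while all genes of similar length had medians of 0.33 to 0.40. With the trend removed, the called genes were Flt1 and Kdr, higher, and Pecam1, lower. In that fit 3573 of all 16730 genes tested were called higher and 2872 lower. The cause of the trend was not tested.

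Pairs of related genes were then compared as log2 ratios of counts within each library, which do not depend on scaling between libraries. There were 6 such pairs, and the smallest two-sided p that an exact permutation test of 4 against 4 libraries allows is 0.0286, or 0.0571 after Benjamini-Hochberg adjustment as it fell here. The log2 ratio of Cldn5 to Ocln was 3.91, 3.85, 3.87 and 4.79 in 6m and 2.61, 2.50, 2.46 and 1.83 in 24m. The claudin thus exceeded the occludin in every library but by less in each 24m library than in any 6m library, with a difference of -1.76 (exact permutation p = 0.0286, adjusted p = 0.0571, n = 4 per age). The exons of these genes differ in length by 1416 against 9385 bp, so this ratio is not free of the length trend. The same limit holds for the other pairs. Slc2a1 and Slc2a3 have 4691 and 7500 bp of exons, and Angpt2 and Angpt1 have 4792 and 7184 bp.

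The log2 ratio of Slc2a1 to Slc2a3, which encodes the neuronal glucose transporter GLUT3, was 1.08, 0.58, 0.78 and 1.07 in 6m and -0.09, -0.19, -0.07 and -0.37 in 24m. Slc2a1 had more counts than Slc2a3 in every 6m library and fewer in every 24m library, a difference of -1.06 (exact permutation p = 0.0286, adjusted p = 0.0571, n = 4 per age). Slc2a3 has the longer exons, 7500 against 4691 bp, so fewer counts of Slc2a1 do not mean a lower level per exonic length. Slc2a3 itself was called higher, from 34.7 ± 4.15 to 80.2 ± 9.92 CPM (SD, n = 4; log2 fold change 1.21, SE 0.12, edgeR adjusted p = 6.51e-05). Flt1 to Kdr had log2 ratios of 1.67, 0.99, 1.03 and 1.07 in 6m and 0.84, 1.13, 1.52 and 1.39 in 24m, and the ages overlapped. Their difference between the ages was 0.03 (exact permutation p = 0.943, n = 4 per age), or 0.19 without 6m replicate 1, whose ratio of 1.67 stood above the others. A p of this size does not show that the ratio was constant.

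Tek to Tie1, the partner receptor of TIE2, had log2 ratios of -2.42, -2.09, -1.91 and -2.40 in 6m and -2.48, -1.34, -1.25 and -0.64 in 24m. It was higher in 3 of the 24m libraries than in any 6m library, while replicate 1 was lower, and the difference of 0.78 did not pass the test (exact permutation p = 0.143, adjusted p = 0.214, n = 4 per age). The SD of this ratio was 0.25 in 6m and 0.77 in 24m, and without 24m replicate 1 the difference was 1.13. Tie1 itself fell, from 11.2 ± 2.2 to 5.18 ± 0.806 CPM (SD, n = 4; log2 fold change -1.11, SE 0.17, edgeR adjusted p = 0.000518). Of the angiopoietins, the ligands of TIE2, Angpt1 rose by 1.44 on the log2 scale (SE 0.24, edgeR adjusted p = 0.000821), from a mean of 0.344 to 0.94 CPM, while Angpt2, with means of 0.771 and 0.878, was not called. Their log2 ratio, Angpt2 to Angpt1, was 0.93, 1.24, 0.79 and 1.72 in 6m and 0.49, -0.08, -0.32 and -0.41 in 24m, lower in each 24m library (difference -1.25, exact permutation p = 0.0286, adjusted p = 0.0571, n = 4 per age). Abcb1a to Abcb1b had log2 ratios of 0.33, 0.09, 0.37 and 0.27 in 6m and -0.59, 0.54, 0.82 and 0.84 in 24m, with replicate 1 again on the other side of 6m from the other 24m libraries (difference 0.14, exact permutation p = 0.771, n = 4 per age).

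**Figure D4:**
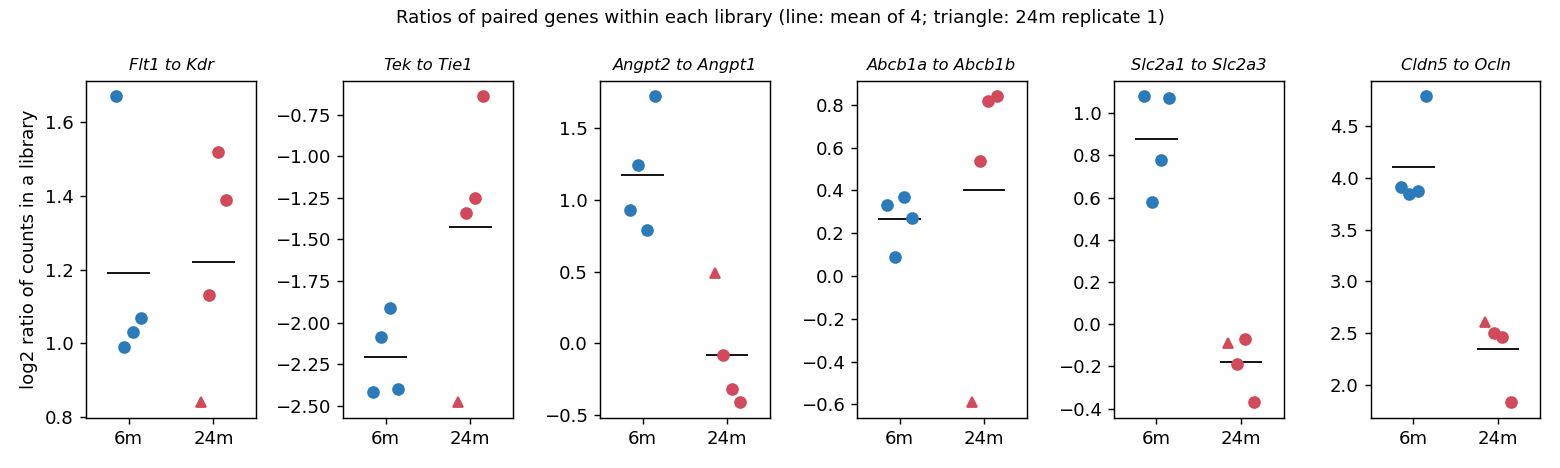
Log2 ratio of the counts of paired genes within each library (vertical axes differ between panels) in 6m (blue) and 24m (red), with the mean of 4 libraries as a line and 24m replicate 1 as a triangle. The ages do not overlap for Angpt2 to Angpt1, Slc2a1 to Slc2a3 and Cldn5 to Ocln.

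For context, other genes of the endothelium, of barrier function and of its signals were described by lists. The tissue was not sorted, so the RNA of any listed gene need not come from endothelial cells. Of 15 genes of endothelial identity, 6 fell at 24m (Tie1, Sox17, Emcn, Egfl7, Icam2 and Ly6c1) and none rose, beside 18.3% called lower and 25.3% called higher over all genes tested, with their median at -0.41 on the log2 scale. All 15 were detected and tested, among them Cdh5, which encodes VE-cadherin, with a log2 fold change of 0.57 just under the fold threshold. The largest decreases were those of the adhesion molecule gene Icam2 (log2 fold change -1.35, SE 0.24, edgeR adjusted p = 0.00104) and of Ly6c1 (-1.26, SE 0.17, edgeR adjusted p = 0.00024). The summed level of the 15 was at least 179 CPM in 6m libraries and at most 135 CPM in 24m libraries, while that of the 10 genes ran from 137 to 165 CPM in 6m and from 117 to 157 in 24m. Most of that separation came from Egfl7 and Ly6c1, singled out after their values were seen: the other 13 genes summed to 69.9 to 99.7 CPM in 6m and 58 to 75.4 CPM in 24m, which overlap. The exons of Egfl7 overlap those of 2 other genes of the count table, Gm20532 on the same strand and Agpat2 on the other, and how such reads were counted was not stated. When libraries were scaled to these 15 genes, so that each gene was read relative to them, the median of all genes tested moved to 0.51. On that scale 5 of the 10 genes were called higher (Ocln, Flt1, Kdr, Slc2a1 and Abcb1a) and none lower. Of all 16730 genes tested, 7393 were called higher and 457 lower on that scale, so the 10 genes did not stand out by these counts. Cldn5 had a log2 fold change of -0.55 there.

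In the lists, genes counted as having risen or fallen are those called higher or lower. Counts in the lists that follow are to be read beside the 25.3% of all genes tested that were called higher and the 18.3% called lower. Among 9 further junction genes, 3 rose and 1 fell, near those shares, with a median log2 fold change of 0.55. Tjp1, which encodes the scaffold ZO-1 to which claudins bind, rose by 1.75 (SE 0.32, edgeR adjusted p = 0.00123) and Cldn12 by 1.41 (SE 0.21, edgeR adjusted p = 0.000392), while Lsr, which encodes angulin-1 of tricellular junctions, fell by 0.73 on the log2 scale (SE 0.15, edgeR adjusted p = 0.00227). Without 24m replicate 1, 7 of the junction genes were called higher, beside 4644 of all 16730 genes tested. Ocln moved in the direction of the 3 junction genes called higher, and Cldn5 in that of Lsr. Among 15 further transport genes, 7 rose and 2 fell, with a median of 0.50. The amino acid transporter gene Slc7a1 rose by 2.69 (SE 0.33, edgeR adjusted p = 0.000161) and the transferrin receptor gene Tfrc by 1.73 (SE 0.29, edgeR adjusted p = 0.000809), while Slc38a5 had a log2 fold change of -0.90 and the efflux pump gene Abcg2 of -0.58, both called lower.

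Of 10 ligands and receptors of the VEGF and angiopoietin families, 3 rose and 2 fell, near the shares over all genes tested, with a median of -0.00. The coreceptor gene Nrp2 rose by 2.23 (SE 0.28, edgeR adjusted p = 0.000192) and Flt4, which encodes VEGFR3, by 0.94 (SE 0.23, edgeR adjusted p = 0.00515), so that all 3 VEGF receptor genes were higher at 24m. Vegfb and Pgf, whose products bind VEGFR1, fell, with log2 fold changes at -1.06 (SE 0.13, edgeR adjusted p = 0.00014) and -0.70 (SE 0.20, edgeR adjusted p = 0.013). Vegfa, which binds both Flt1 and Kdr products, went from 17.8 ± 1.42 to 20.5 ± 1.45 CPM (SD, n = 4) and was not called. Of 14 genes of Wnt signalling in the barrier, 5 were called higher and none lower, with a median of 0.48. Nkd1 at -0.44, Wnt7a at 0.46 and Apcdd1 at 0.49 (edgeR adjusted p = 0.00971, 0.00652 and 0.0458) passed the p threshold but not the fold threshold. The receptor genes Fzd4 and Lrp6 rose by 1.47 and 1.24 (edgeR adjusted p = 0.000563 and 0.00381), though the ages overlapped for Lrp6. Without 24m replicate 1, 8 of the 14 were called higher, beside 4644 of all 16730 genes tested.

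Of 6 caveolae genes, 4 were called higher and none lower, with a median of 0.76. Ehd2 at 0.45 and Plvap at -0.45 (edgeR adjusted p = 0.0277 and 0.00538) passed the p threshold but not the fold threshold. Every 24m library of Plvap was below every 6m library. Cav2 rose by 1.18 (SE 0.31, edgeR adjusted p = 0.00794) and Cav1, which encodes caveolin-1 of the transport vesicles that Mfsd2a restrains, by 0.97 (SE 0.25, edgeR adjusted p = 0.00713). Of 6 genes of endothelial activation, 4 were tested. Icam1 at 0.55 and Vcam1 at 0.40 (edgeR adjusted p = 0.0388 and 0.0273) passed the p threshold but not the fold threshold. Lrg1 at -0.39 (edgeR adjusted p = 0.0625) passed neither. No gene of this list was called higher and 1 was called lower. That gene was Ackr1 (log2 fold change -0.77, SE 0.12, edgeR adjusted p = 0.000615), whose exons overlap those of the neuronal gene Cadm3 on the same strand and whose log2 fold change was -0.09 with the length trend removed. The selectin genes Sele and Selp had too few counts to be tested, and Sele was at 0 in all libraries but 24m replicate 4.

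**Figure D5:**
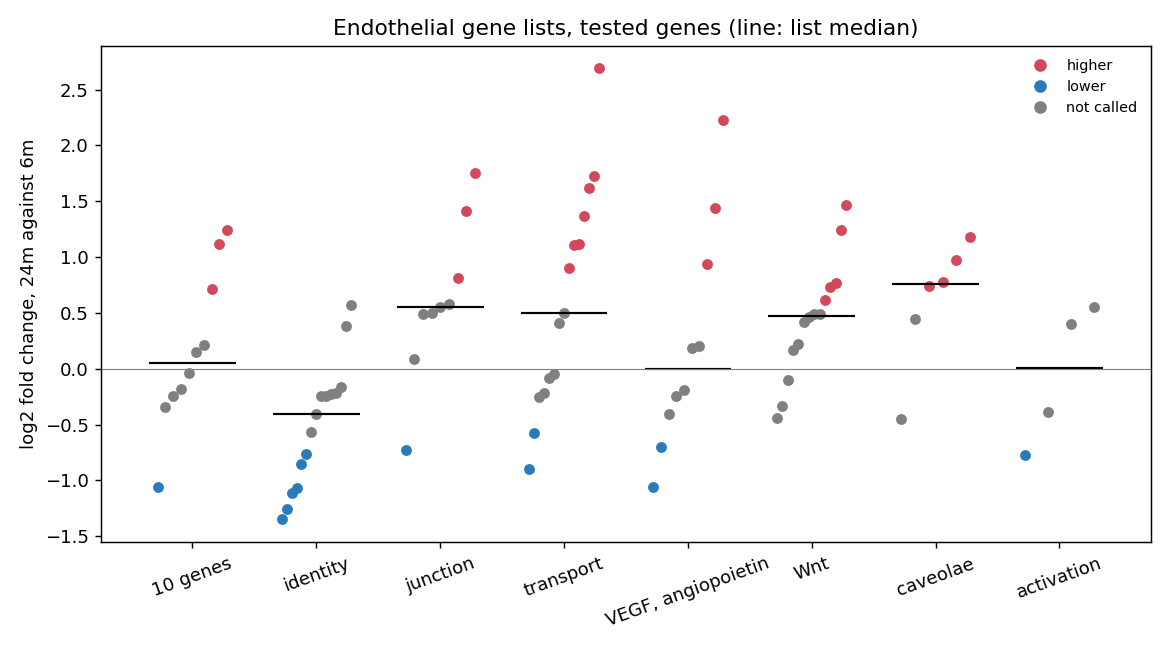
Log2 fold change at 24m against 6m (vertical axis) of each tested gene in the set of 10 and in 7 further lists. The lists hold genes of the endothelium, of barrier function or of its signals, and the line is the list median. The tissue was not sorted, so these levels need not come from endothelial cells. Red points were called higher, blue points lower and grey points were not called. The identity list has its median at -0.41, while those of the junction, transport, Wnt and caveolae lists lie between 0.48 and 0.76.

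Markers of other cells that share the tissue with the endothelium were counted in the same way, beside the same 25.3% called higher and 18.3% called lower over all genes tested. Of 9 mural cell genes, 3 rose and 3 fell, from Abcc9 with a log2 fold change of 2.14 to Tagln with -0.93, and their summed level was 188 to 251 CPM in 6m and 140 to 177 CPM in 24m. All 5 erythroid genes fell, led by Hbb-bs with -1.52, with summed levels of 5426 to 7605 CPM in 6m and 1242 to 4156 CPM in 24m. Of 7 astrocyte genes, 5 rose and 1 fell, from Aqp4 with 1.92 to S100b with -1.29, and their summed level was 720 to 851 CPM in 6m and 1069 to 1226 CPM in 24m. Of 7 microglial genes 2 rose, near the share over all genes, led by Cx3cr1 with 1.72, and the 7 summed to 447 to 477 CPM in 6m and 448 to 621 CPM in 24m. Of 4 macrophage genes 2 rose, of which Cd163 had 0.70, with sums of 1.65 to 2.02 and 2.3 to 2.96 CPM. Of 6 fibroblast genes 1 rose, Pdgfra with 2.05, with sums of 60.8 to 76.1 and 74.1 to 76.8 CPM. Of 6 choroid plexus genes 3 rose, led by Kl with 1.53, while Ttr, Folr1 and Kcnj13 had log2 fold changes of -0.79, -0.85 and -0.28 and were not called. Their sums, 1780 to 3205 CPM in 6m and 827 to 2258 CPM in 24m, were mostly Ttr, whose mean was 2452 CPM in 6m and 1416 CPM in 24m. Neuronal genes numbered 3 higher and 1 lower of 7, from Map2 with 3.09 to Tubb3 with -0.63, with sums of 3411 to 3819 and 3988 to 4207 CPM. The share of mitochondrial counts was 5.26 to 6.52% in 6m and 3.18 to 3.69% in 24m. Without 24m replicate 1, the counts in these lists that moved by more than 1.5 times were those called higher in the junction (7), Wnt (8), identity (1) and macrophage (1) lists and those called lower in the transport (1) and choroid plexus (2) lists. With that library left out, 4644 of all 16730 genes tested were called higher and 3661 lower. The part of any of these differences between the ages in the values of the 10 genes was not tested.

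The members also differed in how closely their pattern over the 8 libraries followed other endothelial genes. Likeness was measured as the root mean square difference of centred log2 CPM, over 13969 other genes whose mean was 1 CPM or more. Robo4 was ranked 2 of all genes for Slco1a4 (difference 0.16) and Eng was ranked 3 for Pecam1 (0.12), while Tie1 was ranked 5 for Cldn5 (0.13) and Abcb1a was ranked 5 for Tek (0.24). The nearest endothelial gene to Flt1 was Kdr, at rank 232 (0.27), and the nearest to Kdr was Flt1, at rank 938. For Ocln it was Cdh5 at rank 537 (0.22), for Slc2a1 it was Eng at rank 2815 (0.22) and for Mfsd2a it was Esam at rank 4178 (0.27). The single nearest gene of all was Gm14391 for Cldn5 (0.09), Frem2 for Ocln (0.12), Speg for Slc2a1 (0.05), Cth for Mfsd2a (0.06) and Lmod1 for Pecam1 (0.07). It was Rad54l2 for Flt1 (0.12), Garem1 for Kdr (0.10), Scn3a for Abcb1a (0.20) and Dram2 for Slco1a4 (0.15). These likenesses rest on 8 libraries that share their depth and scaling and are given as a description.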

How the data were processed

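Brain poly(A) RNA of 8 mice was analysed from the deposited table of whole-number counts per gene and library. The authors trimmed reads with Trim Galore 0.4.11, aligned them to GRCm39 with HISAT2 2.1.0 and counted with featureCounts; strand use and multimapping were not given in the sources used here. Genes were tested (16730 of 22430) where more than 5 counts were present in 4 or more libraries. The fit was the quasi-likelihood method of edgeR 4.0.16 in R 4.3.3, TMM-scaled, with a single age term and Benjamini-Hochberg adjustment over all genes tested. SE is the log2 fold change over the square root of F, from which normal 95% intervals were taken. Per the study's methods the replicates are separate animals. Libraries of 1 age differed by more than sampling noise (chi-square per degree of freedom 8.18 to 417 over 12 pairs). The length trend was removed by a lowess offset (span 0.3). In a simulation of 24m against 6m (16730 genes, 200 with a log2 change of 1), 64.5% of the changed genes were called, with 11 false calls, and 0 without any change. Exact tests (SciPy 1.17.1) used a prior count of 0.5. The members and lists were chosen with earlier results of these data known. From each list, called genes of 1 CPM or more with the largest and smallest change were named, up to 2 per direction for endothelial lists; Cdh5, Vegfa, Sele, Selp, Ttr, Folr1, Kcnj13 and the other called identity genes were picked with their values in view. Alternative settings covered scaling, DESeq2 1.42.0, limma-voom (limma 3.58.1), filters, thresholds, left-out libraries, a replicate block, thinning, and length or GC trends; scaling to counts per exonic length and list counts without 24m replicate 1 or with the length trend removed were chosen after seeing the data. Some named genes are not reported here.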

Additional observations from a re-analysis of the deposited data

Results flagged for a closer look

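Of 32 groups of 4 libraries checked for a sample far from the others (10 genes and 6 ratios at each age), 2 had a sample whose gap to its nearest neighbour, as a share of the group's range, was past the 95% critical value of Dixon; chance gives about 1 in 20. The log2 ratio of Flt1 to Kdr was 1.67 in 6m replicate 1, against 0.99 to 1.07 in the other 6m libraries. The log2 ratio of Cldn5 to Ocln was 4.79 in 6m replicate 4, against 3.85 to 3.91 in the others. Levels of the 10 genes were checked in CPM, and none of those 20 groups passed that limit. On the log2 scale, tried after seeing the data, 1 of the 20 did: Abcb1a in 24m, where replicate 1 was at 1.83 CPM against 4.86 to 5.66 in the other libraries, a gap of 0.86 of the range.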

How the results depend on the processing

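Flt1 and Kdr were called higher in all 24 alternative fits, Ocln in 19, and Cldn5 was called lower in 19. The number of members called was 3 to 5 in every setting; it was 4 with the replicate block, which changed no call, and with each library left out in turn. With libraries scaled to 15 endothelial identity genes, 5 members were called higher and 0 lower, beside 7393 and 457 of all 16730 genes tested. With scaling to the sum of counts per exonic length, 0 members were called lower, beside 567 of all genes tested. By the adjusted p alone, 2 members were lower (Cldn5 and Mfsd2a), beside 4999 of all genes tested. The median of all genes tested moved to 0.21 with library totals, 0.51 with the endothelial scaling, 0.52 with counts per exonic length and -0.10 with quantile normalization, so that direction changes under these scalings are relative to those shifts. Log2 fold changes that changed sign, each under the setting named, were as follows. With library totals alone Tek had 0.06, Slco1a4 0.18 and Abcb1b 0.17. With the endothelial scaling Mfsd2a had 0.17, Pecam1 0.28, Tek 0.31, Slco1a4 0.45 and Abcb1b 0.45. With counts per exonic length Mfsd2a had 0.19, Pecam1 0.31, Tek 0.39, Slco1a4 0.50 and Abcb1b 0.48. On quantile-normalized counts Abcb1a had -0.18 and Angpt2 -0.02, and with the GC trend removed Angpt2 had -0.00. Mfsd2a had 0.01 with the length trend removed, 0.07 with both trends removed and 0.00 with the length trend and the replicate block, where Abcb1a had -0.01. Leaving out 1 library gave Tek 0.10 and Abcb1b 0.01 without 24m replicate 1, and Slco1a4 0.11 without 24m replicate 1, 0.06 without 6m replicate 1 and 0.01 without 6m replicate 3. Over the 8 fits that each left out 1 library, Tek ranged from -0.37 to 0.10, Slco1a4 from -0.18 to 0.11 and Abcb1b from -0.13 to 0.01. Correlations of same-numbered libraries were 0.27, 0.14, 0.08 and -0.35. The cause of these changes was not tested. With the length trend removed, 3573 of the 16730 genes tested were called higher and 2872 lower. Identity genes then numbered 8 lower and 1 higher. No junction or activation gene was called lower, while 2 Wnt genes, 1 fibroblast gene and 1 choroid plexus gene were. Within-library ratios moved by less than the spread of the libraries with a prior count of 5 and with each library left out; they were not recomputed with the length trend removed. The lowest counts, 47 for Kdr, 85 for Tek and 93 for Ocln, limit the precision of single libraries.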
